A study of Mus musculus with 8 samples.

Results

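Cells in endothelial-to-hematopoietic transition (EHT) were the 488 of 15168 single cells that the deposited annotation names EHT. The other clusters are 4 of endothelium (vEC_1 to vEC_4), arterial endothelium (aEC), endothelium before the hemogenic stage (pre-HE), erythro-myeloid progenitors (EMP), Myeloid cells and Megakaryocytes. All cells were CD31+ and were sorted from the aorta-gonad-mesonephros region (AGM) of mouse embryos at embryonic day 10.5, and RNA and up to 6 surface proteins, read with antibody tags, were counted in each cell (CITE-seq). The 8 libraries hold 5 of WT embryos, given the strain C57BL/6 in the labels, and 3 of Meis1-flox/VE-Cre embryos, given the genotype Meis1-knockout. Each library is a pool of 2 to 5 embryos, so p-values measure the spread between pools. The labels name no treatment in either group. In the study's methods the floxed mice carry loxP sites around exon 8 of Meis1, and Cre is driven by the promoter of Cdh5, the gene of VE-cadherin, which is active throughout endothelium. Elsewhere in the study WT means littermates without Cre.

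In the dorsal aorta, a small number of endothelial cells lose their junctions, round up and enter the blood as the precursors of hematopoietic stem and progenitor cells. Runx1 is required for this step, and Gfi1, one of its targets, represses endothelial genes. A cell in transition is therefore described by holding RNA of endothelium and of blood together. EMP arise from the yolk sac in an earlier wave and share many blood genes with EHT cells without coming from the aorta.

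The WT libraries held 64, 45, 31, 68 and 118 EHT cells (WT 1 to 5), and the Meis1-flox/VE-Cre libraries held 71, 51 and 40. Depth differed with genotype. The median EHT cell had 28944, 34875, 39461 and 31902 unique molecular identifiers (UMIs) in WT 1 to 4, and 13526 in WT 5, beside 14113, 9277 and 15874 in the Meis1-flox/VE-Cre libraries. Library totals ranged from 20484881 to 79429129 UMIs. Scrublet called 15 EHT cells (3.07%) and 83 of all cells (0.547%) doublets. A barcode found in more than 1 library was carried by 66 cells, of which 2 were EHT cells. A CreERT2 feature in the table was counted 0 times in every WT library and 12, 3 and 19 times in Meis1-flox/VE-Cre 1 to 3. The labels name the transgene VE-Cre, and where the 3′ reads lie relative to the deleted exon was not examined, so neither this feature nor the Meis1 level is taken as a check of the deletion.

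Levels are given as CPM, the UMIs of a gene scaled to a common library total, computed on the summed UMIs of all EHT cells of a library. In such sums, fewer cells that express a gene and less RNA per cell cannot be told apart. The authors' clustering rests on this RNA, so RNA levels of EHT cells against other clusters are described here with no test.

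The authors named the clusters by hand from genes enriched in them, so the levels of marker genes describe the cells and are no independent check of the name. Runx1 was at 199, 197, 187, 161 and 210 CPM in EHT cells of WT 1 to 5, and at 214, 206 and 183 CPM in those of Meis1-flox/VE-Cre 1 to 3. Its WT mean of 191 ± 18.5 CPM (SD, n = 5) was the highest of the 10 clusters and stood beside 168 ± 8.57 in EMP, 160 in Megakaryocytes and 143 in Myeloid cells, but 7.06 ± 12 in pre-HE and 1.11 in aEC. Spi1, which encodes PU.1, a master factor of myeloid cells, averaged 218 ± 21.2 CPM, close to EMP at 195 ± 27.3 and below Myeloid cells at 360 ± 48.2. Runx1 and Spi1 thus separated EHT cells from endothelium and not from EMP: the log2 ratio of EHT over EMP was 0.18 ± 0.21 for Runx1 and 0.17 ± 0.28 for Spi1.

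Gfi1 separated EHT cells from both. EHT cells of WT 1 to 5 held it at 51.1, 58.2, 30.1, 62.2 and 32.6 CPM, those of Meis1-flox/VE-Cre 1 to 3 at 35.8, 33.3 and 41.6. In WT EMP its mean was 1.53 CPM and in WT Myeloid cells 0.515, so that every EHT sum lay above these means. The log2 ratio over EMP was 4.75 ± 0.83, higher in 5 of 5 WT libraries.

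Meis1, a homeodomain factor of stem and progenitor cells, lay between pre-HE and Megakaryocytes. Its EHT mean was 80.0 ± 6.94 CPM in WT, beside 31.8 ± 14.6 in pre-HE, 65.6 in EMP and 119 ± 35.5 in Megakaryocytes. Ptprc, the gene of the pan-leukocyte protein CD45, was low: 38.6, 33.2, 24.2, 25.4 and 41.3 CPM in WT, 48.4, 33.3 and 54.1 in Meis1-flox/VE-Cre, against 179 ± 44.8 in WT Myeloid cells. No Ptprc UMI was seen in WT pre-HE (0 of 171 cells, which allows a share of up to 1.75% with a UMI). EHT cells were higher than EMP in Ptprc in 1 of 5 WT libraries, and the 2 means (32.5 ± 7.63 and 43 ± 17.3 CPM) lay within their spread.

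The genes that set EHT cells apart from all clusters were few. Only sums of at least 10 cells were compared, so Megakaryocytes of WT 3 (5 cells) were left out. Of 4382 genes with at least 30 CPM in WT EHT cells, 120 were higher there than in every other cluster in each of the 5 WT libraries, and 15 (0.342%) had a mean log2 margin of at least 1 over the next cluster. The rule used these levels, so they are a description. Kit (1.03) and Mctp1 (1.07) lie just inside that margin, and Rab38 (0.97) and Cacna1a (0.95) just outside it. In 13 of the 15, EHT was also the highest cluster in all 3 Meis1-flox/VE-Cre libraries, the exceptions being Serpina3g and Dlk1.

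**Figure D1:**
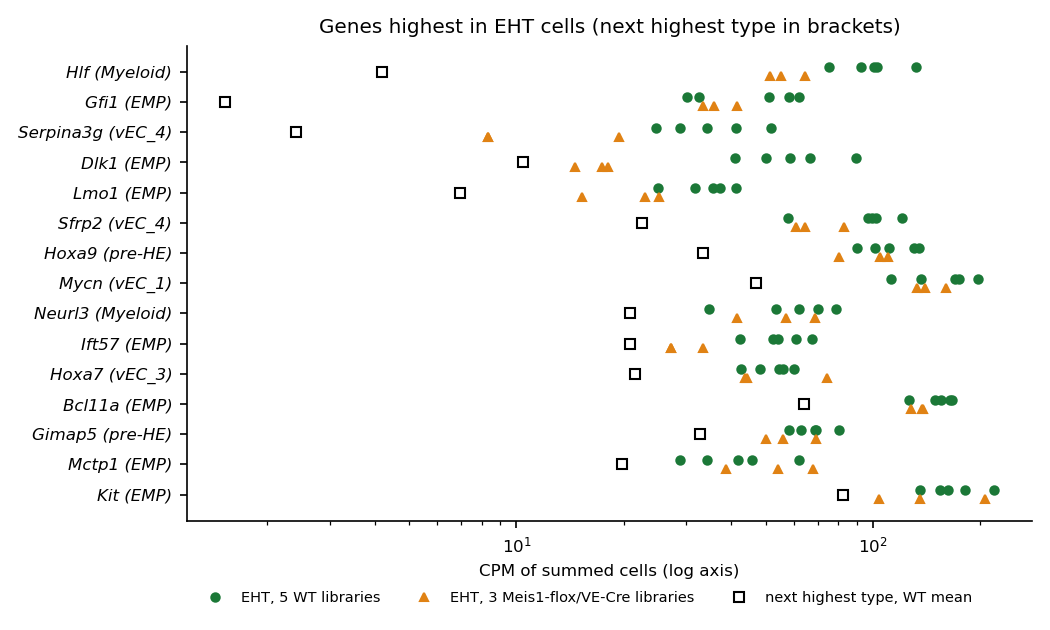
Level of the 15 genes highest in EHT cells, in CPM on a log axis, with a circle for each WT library, a triangle for each Meis1-flox/VE-Cre library and an open square for the WT mean of the next highest cluster. The gap to the square is widest for Hlf and Gfi1 and narrows to 1.03 on the log2 scale for Kit, and the triangles of Dlk1 and Serpina3g lie to the left of their circles.

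Hlf, a PAR bZIP factor of hematopoietic stem cells, had the widest margin, 5.04 on the log2 scale. It was at 132, 92.7, 103, 75.5 and 100 CPM in EHT cells of WT 1 to 5, and its next cluster, Myeloid, averaged 4.2 ± 3.96. Gfi1 followed at 4.75. Serpina3g, which encodes a serine protease inhibitor, averaged 36.2 ± 10.8 CPM against 2.41 in vEC_4. Dlk1, which encodes a surface protein related to Notch ligands, averaged 61.2 ± 18.6 CPM against 10.4 in EMP.

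Several other members encode transcription factors or their partners. Lmo1, a LIM-only cofactor, averaged 34.2 ± 6.18 CPM (EMP 6.94), and the homeobox genes Hoxa9 and Hoxa7 averaged 114 ± 18.8 (pre-HE 33.4) and 52.3 ± 6.93 (vEC_3 21.5). Mycn, a member of the Myc family, was at 158 ± 33.6 CPM against 47.1 in vEC_1, and Bcl11a, a zinc finger factor of lymphoid cells and of hemoglobin switching, at 152 ± 16.1 against 64.1 in EMP. EMP was the next highest cluster for 7 of the 15 genes, Myeloid for 2, pre-HE for 2 and a vEC cluster for 4.

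The other members have varied roles. Sfrp2, a secreted modulator of Wnt signalling, averaged 95.4 ± 23.1 CPM, and Neurl3, an E3 ubiquitin ligase, 59.9 ± 17.0 CPM. Ift57, a part of the transport machinery of cilia, averaged 55.6 ± 9.44, Gimap5, a GTPase of lymphocyte survival, 68.0 ± 8.36, and Mctp1, a calcium-binding membrane protein, 42.5 ± 12.7 CPM. Kit, the receptor for stem cell factor, was at 170 ± 31.3 CPM against 82.6 ± 8.48 in EMP, 35.8 in aEC and 12.5 in pre-HE.

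Promoter sequences of these genes were searched for the RUNX and MEIS core motifs, since Runx1 and Meis1 are both present in the cells. A motif of the ETS family was searched as well. The window ran from 250 bases before to 50 after each RefSeq start (GRCm38.p6), all 15 genes had an entry, and both strands were read. The RUNX core TGTGGT occurred in 2 of the 15 genes (Serpina3g and Dlk1), beside 18.9% of all 27025 genes with an entry. The MEIS core TGACAG occurred in 2 (Mycn and Neurl3), beside 21.6% of all genes, and the ETS motif CCGGAAGT in 0, beside 4.31%. These shares are near or below those of all promoters, and a match describes letters, not a bound site. The promoters of Dlk1 (chr12:109452573-109452872, plus strand, RUNX core in capitals) and Neurl3 (chr1:36273376-36273675, minus strand, MEIS core in capitals) are shown as 1 example of each motif that had a match, chosen after the values were seen.
Dlk1: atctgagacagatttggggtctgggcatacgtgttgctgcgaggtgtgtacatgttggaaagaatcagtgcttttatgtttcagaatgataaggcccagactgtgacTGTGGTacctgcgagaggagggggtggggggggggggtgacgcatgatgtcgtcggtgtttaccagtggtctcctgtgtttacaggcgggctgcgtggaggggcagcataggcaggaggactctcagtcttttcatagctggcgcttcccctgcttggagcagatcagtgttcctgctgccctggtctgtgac
Neurl3: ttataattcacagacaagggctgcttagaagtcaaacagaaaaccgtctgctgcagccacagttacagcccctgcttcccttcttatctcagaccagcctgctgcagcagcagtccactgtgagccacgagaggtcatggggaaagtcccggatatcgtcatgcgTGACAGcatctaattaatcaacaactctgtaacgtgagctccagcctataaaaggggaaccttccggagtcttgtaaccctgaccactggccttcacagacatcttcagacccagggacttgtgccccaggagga

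Endothelial genes were kept at part of their endothelial level. Lists of genes were compared by how many members were at least 2-fold higher or lower in EHT sums in every WT library. Of 9761 genes, 7.60% were higher and 8.79% lower against aEC, and 5.29% higher and 9.14% lower against pre-HE. Against EMP, 6.92% were higher and 1.64% lower, against Myeloid cells 6.26% and 4.89%, and against Megakaryocytes (4 libraries) 4.92% and 6.15%. Of 25 pan-endothelial genes, 17 were lower than in aEC (median log2 ratio -1.88) and all 25 were lower than in pre-HE (median -3.26), but 20 were higher than in EMP (median 3.10) and 15 higher than in Myeloid cells (median 2.64). Against Megakaryocytes, 1 was higher and 1 lower (median 0.95). Cdh5 was at 91.1, 108, 113, 213 and 148 CPM in EHT cells of WT 1 to 5, against a mean of 350 in aEC, 1075 ± 108 in pre-HE and 7.26 in EMP. Ramp2, a receptor partner needed for vascular development, averaged 250 ± 66.3 CPM in EHT, 1144 in aEC and 2724 in pre-HE. Egfl7, a secreted endothelial factor, averaged 345 ± 63.9 CPM in EHT, 921 in aEC and 142 in EMP. Robo4 and Cav1 were nearly lost, at 3.41 and 2.29 CPM.

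Arterial genes, which mark the aortic wall from which these cells come, were lower still. Of 16, 15 were lower than in pre-HE (median -4.54), 10 were lower and 1 higher than in aEC (median -2.39), and 10 were higher than in EMP (median 2.64). Gja4, the gene of connexin 37, was at 33.7 ± 17.4 CPM in EHT against 157 in aEC and 1475 in pre-HE. Hey2, a Notch target, was at 0.217 CPM against 106 in pre-HE. Nrp1, a co-receptor for VEGF, was at 45.7 ± 19.7 CPM against 243 in aEC and 949 in pre-HE. Of 5 venous genes, 3 were lower than in aEC and 2 higher than in EMP. Among 18 SoxF, ETS and other endothelial factors, 10 were lower than in aEC and 7 higher than in EMP, and Sox18 averaged 73 CPM against 294 in aEC and 415 in pre-HE.

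Most blood genes were above endothelial levels, and part of them lay below EMP and Myeloid cells. Of 26 pan-hematopoietic genes, 23 were higher than in aEC (median 4.95), 19 were higher than in pre-HE (median 4.72), and 7 were lower and 1 (Gfi1) higher than in EMP (median -0.64). The widest gap to EMP was that of Cd53, a leukocyte tetraspanin, at -4.17. Against Myeloid cells, 14 were lower and 3 higher (median -1.42). Against Megakaryocytes, 6 were higher and 6 lower (median 0.21). Arhgdib and Coro1a, regulators of the leukocyte cytoskeleton, averaged 313 ± 32.5 and 312 ± 57 CPM in EHT, 528 and 480 in EMP, and 67 and 14 in aEC. Of 22 genes of leukocyte machinery, 19 were higher than in aEC and 8 lower than in EMP, as were 14 against Myeloid cells, with 0 higher against either blood cluster.

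The 30 hematopoietic transcription factors did not move as a block. Against aEC, 18 were higher and 0 lower, and against EMP 6 were higher and 2 lower. Lmo2, a bridging factor used by endothelium and blood alike, was at 330 ± 42.4 CPM in EHT, 637 in aEC and 249 in EMP. The erythroid factors Gata1 and Klf1 were at 1.99 and 1.51 CPM, against 53.9 and 31.7 in EMP. Of 24 genes linked to hemogenic endothelium or to the precursors of hematopoietic stem cells, 16 were higher than in aEC and 14 higher than in EMP. Ifitm1, an interferon-induced membrane protein, was at 481 ± 164 CPM in EHT, 140 in EMP and 1.58 in aEC, and Hmga2, a chromatin protein of fetal stem cells, at 729 ± 107, 251 and 262.

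EHT cells also carried more RNA of the cell cycle than arterial cells. The summed level of 20 S phase genes was 2372 ± 107 CPM in WT EHT against 1520 in aEC, 1212 in pre-HE and 2762 in EMP. For 24 G2/M genes it was 3990 ± 457 CPM in EHT, 2398 in aEC, 2191 in pre-HE and 4647 in EMP. Few of these genes passed 2-fold by themselves, with 2 of 24 G2/M genes higher than in aEC and 0 of 20 S phase genes.

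Marker lists of other cells summed to less in EHT than in the blood cluster given beside each. They were not all at endothelial levels. At least 2-fold higher than in aEC were 4 of 7 granule genes (median log2 ratio 3.32) and 4 of 10 megakaryocyte genes (2.82). For macrophage genes it was 2 of 11 (0.91), beside 7.60% of all genes. Granule genes summed to 215 to 364 CPM across the WT libraries (1496 to 2008 in EMP), with Prtn3 at 142 and Mpo at 61.1 CPM and the neutrophil genes S100a8 and S100a9 at 0.0964 and 0.109. Macrophage genes summed to 27 to 87 CPM (1728 to 3936 in Myeloid cells), and megakaryocyte genes to 399 to 525 CPM (24520 to 46188 in Megakaryocytes). Whether RNA of such cells contributes to the blood genes of EHT sums was not tested.

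Single cells were then compared, to ask whether endothelial and blood RNA lay in the same cells. To remove differences in depth, 5000 UMIs were drawn at random from each cell, which 485 of 488 EHT cells held, and the UMIs of the 25 endothelial and the 26 blood genes were counted. The median EHT cell held 7 endothelial UMIs (range 0 to 56) and 11 blood UMIs (range 1 to 34). For comparison, the median pre-HE cell held 73 endothelial UMIs, the median aEC 38, the median EMP 21 blood UMIs and the median Myeloid cell 36. At least 5 UMIs of each kind were found in 59.4% of EHT cells, in 4.26% of pre-HE, 4.93% of aEC, 6.02% of EMP, 7.69% of Myeloid cells and 45.1% of Megakaryocytes.

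The endothelial share, the endothelial part of both kinds of UMI together, had a median of 38.1% in EHT cells, with quartiles at 20% and 63.2%. It spanned 0 to 96.0%, and 432 cells (89.1%) lay between 10 and 90%, with 13 above and 40 below. Medians of the other clusters were 97.1% to 97.2% in the vEC clusters, 96.6% in aEC, 97.7% in pre-HE, 5.41% in EMP, 2.41% in Myeloid cells and 15.8% in Megakaryocytes. The range from 10 to 90% held 68.8% of Megakaryocytes, 29.7% of EMP, 10.5% of Myeloid cells and 0.426% to 6.6% of the endothelial clusters, so Megakaryocytes were the cluster most like EHT in this respect. Within each library, EHT cells with more endothelial UMIs held fewer blood UMIs, with Spearman's rho across cells from -0.76 to -0.39. Cells share their library and a fixed total of UMIs, so this is a description.

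**Figure D2:**
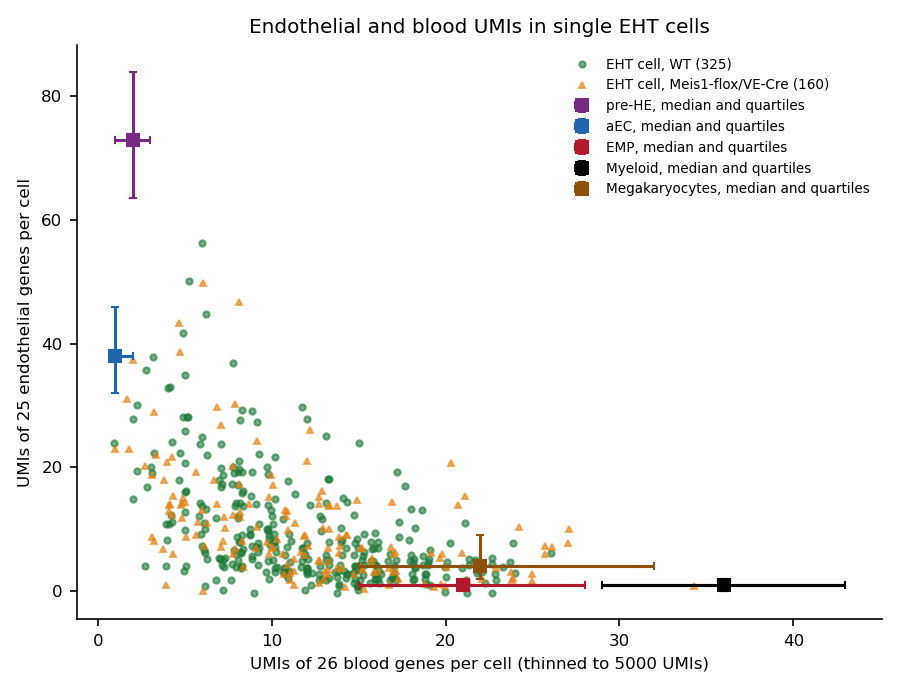
Endothelial UMIs against blood UMIs of each of 485 EHT cells after thinning to 5000 UMIs, with the median and quartiles of pre-HE, aEC, EMP, Myeloid cells and Megakaryocytes. EHT cells fill the space between the endothelial clusters, which have almost no blood UMIs, and the blood clusters, with a median of 7 endothelial and 11 blood UMIs.

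Named genes showed the same. A Runx1 UMI was found in 59.5% ± 11.3 of WT EHT cells after thinning (91.6% unthinned) and in 0.4% of aEC (2.0% unthinned). A Spi1 UMI was found in 64.4% ± 7.5 (94.1%), against 0.3% of aEC (1.2%), and a Gfi1 UMI in 20% ± 2.3 (53.1%), against 0 of 886 thinned aEC, which allows up to 0.339% (0.1% unthinned). Ptprc UMIs were seen in 10.7% ± 5.6 of EHT cells (43.5% unthinned) and 0.1% of aEC (0.6%). From the endothelial side, a Cdh5 UMI was found in 38.7% ± 9.2 of EHT cells (82.1% unthinned) and in 2.2% of EMP (12.4%). Median depth before thinning was 25591.5 UMIs in WT EHT cells, 18343 in aEC and 46035.5 in EMP.

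At 5000 UMIs a gene can be missed in a cell that expresses it, so counts of cells with a pair of genes are low ones. Of 485 EHT cells, 112 held Cdh5 and Runx1 together (17.8% to 26% by library), 132 held Cdh5 and Spi1 (20% to 35%), and 42 held Cdh5 and Gfi1 (5.71% to 12.5%). Ptprc was itself seldom seen. It was held with Cdh5 in 23 cells (0 to 10%) and without it in 43. With Kdr, a VEGF receptor, it was held in 9 (0 to 5%) and without it in 57. For comparison, Runx1 was held without Cdh5 in 164 cells and Spi1 in 171.

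EHT cells of each library were ordered by endothelial share and split into tertiles, to see which genes outside the 2 score lists varied along that order. Of 4339 genes of at least 30 CPM, 203 (4.68%) were higher in the endothelial than in the blood tertile in all 8 libraries, and 118 (2.72%) were higher in the blood tertile. The genes named here were picked for their course along the tertiles after their values were seen. The blood tertile was deeper than the endothelial tertile in every library but WT 5. Median UMIs in the blood, middle and endothelial tertile were 38053, 30271 and 20490 in WT 1. They were 32007, 32318.5 and 31549.5 in WT 4, and 13807, 12378 and 15768 in WT 5. Called doublets numbered 0, 6 and 9 in the 3 tertiles over all libraries. The part of depth and of doublets in the pattern was not tested. A tertile of a library held 10 to 40 cells, in which 1 UMI is worth 20 to 5 CPM after thinning, so levels of a few CPM stand for single molecules.

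Some genes linked to hemogenic endothelium, named here after their values were seen, were higher at the endothelial end. Means over 8 libraries in the blood, middle and endothelial tertile were 10, 38 and 155 CPM for Procr, the gene of the endothelial protein C receptor, and 37, 69 and 147 CPM for Mecom, a zinc finger factor of stem cells and arteries. Both were higher at the endothelial end in 8 of 8 libraries, as were Nupr1 (14, 48 and 161), Nkx2-3 (36, 67 and 93), Mllt3 (22, 22 and 69) and Sfrp2 (54, 68 and 138). Of 20 genes linked to hemogenic endothelium or stem cell precursors, 5 were higher at the endothelial end in all 8 libraries and 2 at the blood end. Of the 4 arterial genes with at least 30 CPM, 3 were higher at the endothelial end in all 8 libraries. Nrp1 was at 182 CPM in the endothelial, 26 in the middle and 4 in the blood tertile, Gja4 at 163, 13 and 3, and Vegfc at 61, 20 and 11. The fourth, Notch1, was at 48, 41 and 26 CPM and higher at the endothelial end in 4 libraries and at the blood end in 3.

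At the blood end stood Ifitm1 (731, 518 and 141 CPM in the blood, middle and endothelial tertile), Dnmt3b, a DNA methyltransferase (209, 159 and 88), and Cd47, the "don't eat me" signal (458, 394 and 261). Each was higher in the blood tertile in 8 of 8 libraries. So were Prtn3 (252, 143 and 28) and Mpo (109, 49 and 26), proteases and peroxidase of granules. Dlk1 was at 60, 40 and 11 CPM, higher at the blood end in 6 of 8 libraries.

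Gfi1 was one of the genes counted as blood, yet it was at 14, 45 and 81 CPM in the blood, middle and endothelial tertile, higher at the endothelial end in 7 of 8 libraries, against the direction in which it enters the score. Its paralog Gfi1b, also counted as blood, ran the other way at 32, 27 and 3 CPM, higher at the blood end in 8 of 8, the direction in which it enters the score. Ptprc, which is not in the score, was at 50, 36 and 9 CPM, higher at the blood end in 8 of 8. Runx1 (233, 165 and 167) and Spi1 (215, 285 and 197), both in the score, and Meis1 (64, 99 and 50) were present in all tertiles. Hlf (106, 86 and 100) and Kit (165, 165 and 156) had similar means along the order with a wide spread between libraries, Hlf being higher at either end in 4 libraries each. Neurl3 (35, 59 and 88) and Mycn (121, 157 and 187) were higher at the endothelial end in 7 of 8 libraries.

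**Figure D3:**
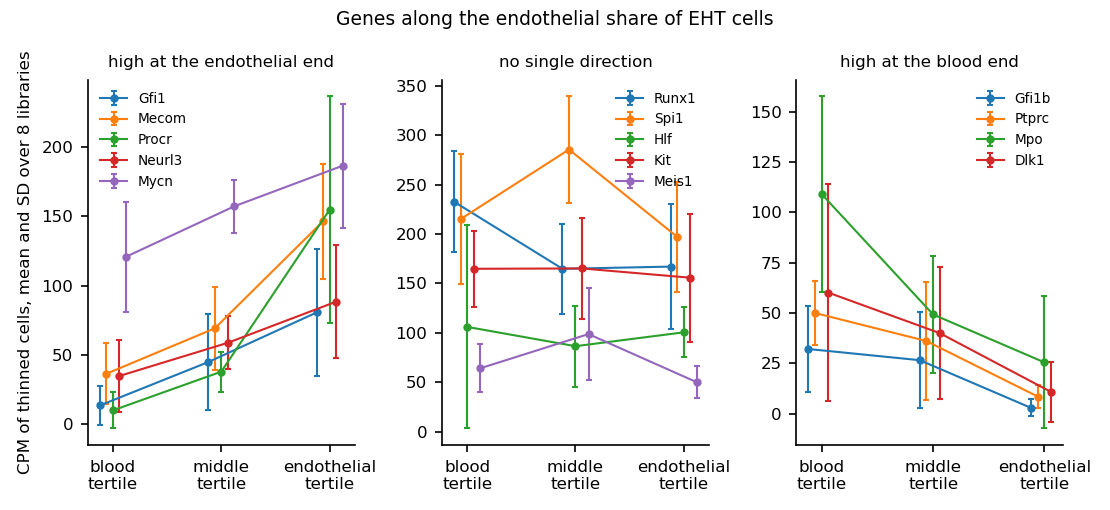
CPM of 14 genes in the blood, middle and endothelial tertile of EHT cells, thinned to 5000 UMIs (mean and SD over 8 libraries), chosen for the plot after their values were seen. Gfi1, Mecom, Procr, Neurl3 and Mycn climb towards the endothelial tertile (left panel), Runx1, Spi1, Hlf, Kit and Meis1 are present throughout (middle), and Gfi1b, Ptprc, Mpo and Dlk1 drop from the blood tertile (right). Gfi1, Runx1, Spi1 and Gfi1b are themselves counted as blood UMIs in the order.

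Surface proteins took no part in the clustering, so tags were tested. The clusters were drawn from RNA, which can include that of the tagged genes, so tests between clusters are not independent of that split. They were counted in 7 libraries (in WT 4 the tag counts were 0), and CD44 in 4, which were WT 5 and Meis1-flox/VE-Cre 1 to 3. Mean counts per cell were compared as log2 ratios within a library and tested by exact sign-flip permutation, two-sided, with Benjamini-Hochberg adjustment over 12 ratios. With 7 libraries the smallest p is 0.0156, and with 4 it is 0.125.

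The early hematopoietic proteins rose from pre-HE to EHT. CD43, the product of Spn, averaged 511, 533, 353 and 160 counts per EHT cell in WT 1, 2, 3 and 5 and 133, 98.4 and 64.1 in Meis1-flox/VE-Cre 1 to 3. In pre-HE it averaged 51.8, 55.0, 37.4 and 8.31 and then 10.8, 5.67 and 4.13. Within every library EHT lay far above pre-HE, by 9.43 to 19.2 times (mean log2 ratio 3.68 ± 0.43, SD, n = 7, exact permutation adjusted p = 0.0208).

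CD41, the integrin that marks the first blood cells, rose by 3.53 ± 0.83 on the log2 scale and CD117, the product of Kit, by 2.84 ± 0.70 (each exact permutation adjusted p = 0.0208, 7 of 7 libraries). CD27 rose by 1.19 ± 0.47 and CD45.2 by 0.71 ± 0.59, with the same exact adjusted p = 0.0208. The CD45.2 step was 1.02 times in the library where it was smallest and 3.38 times in the largest. CD44 was higher in 4 of 4 libraries by 1.76 ± 0.44, which the design cannot carry past the threshold (exact permutation adjusted p = 0.136). EHT cells were also deeper in RNA than pre-HE cells (median 25591.5 against 12884 UMIs in WT). Per 10000 RNA UMIs, CD27 differed by 0.03 and CD45.2 by -0.43, and as a share of 5 tags both were lower in EHT (-1.69 and -2.02), so the rise of these 2 holds for counts per cell. As a share of 5 tags, CD117 and CD41 differed by 0.11 and 0.62 and no longer passed.

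Against EMP, EHT cells carried more CD117 and CD27 and less CD41 and CD45.2. The mean log2 ratios were 0.71 ± 0.28 for CD117, 1.05 ± 0.52 for CD27, -0.64 ± 0.55 for CD41 and -1.42 ± 0.86 for CD45.2 (each exact permutation adjusted p = 0.0208, 7 of 7 libraries in the same direction). CD41 ran from -0.40 to -0.16 in WT and from -1.68 to -0.48 in Meis1-flox/VE-Cre libraries. CD45.2 ran from -1.27 to -0.42 and from -2.71 to -1.38. The genotypes did not overlap in either tag, and both means lay below every WT library. CD43 was lower in 6 of 7 libraries (-0.60 ± 0.63, exact permutation adjusted p = 0.0375) and no longer passed when 1 of 6 libraries was left out (-0.72 to -0.45). EMP cells were deeper (median 46035.5 UMIs in WT), and per 10000 RNA UMIs CD41, CD43 and CD45.2 over EMP differed by -0.083, -0.22 and -1.01 and no longer passed. CD41 over EMP also did not pass as a share of 5 tags (-0.24) or with medians (-0.52). For CD44 the difference was -0.25 ± 0.34 (exact permutation adjusted p = 0.375, n = 4).

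**Figure D4:**
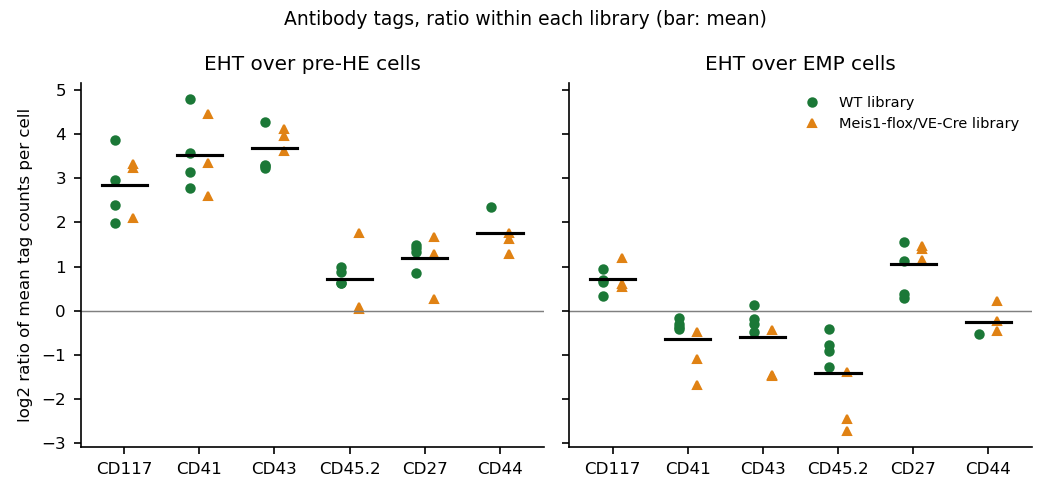
Log2 ratio of mean tag counts per cell of EHT over pre-HE and of EHT over EMP, with a point for each library that has the tag (circles WT, triangles Meis1-flox/VE-Cre) and a bar at the mean. All points over pre-HE lie above 0, and over EMP those of CD117 and CD27 lie above 0 and those of CD41 and CD45.2 below 0.

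RNA and tag of the tagged genes are set side by side on the log2 scale, as the mean ratio of EHT over pre-HE and over EMP, RNA in the 5 WT libraries and tags in all libraries that have them. Kit RNA differed by 3.81 and 1.03 and the CD117 tag by 2.84 and 0.71. Cd27 RNA differed by 2.21 and 2.56 and its tag by 1.19 and 1.05. Spn RNA differed by 5.28 and -0.36 and the CD43 tag by 3.68 and -0.60. For these 3 genes RNA and tag had the same direction in both ratios.

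Itga2b RNA differed by 2.02 and -1.20 and the CD41 tag by 3.53 and -0.64, again in the same directions, with 17.6 ± 4.1 CPM of Itga2b in EHT cells against 596 in Megakaryocytes. Ptprc RNA was not seen in pre-HE and differed from EMP by -0.34, while the CD45.2 tag differed by 0.71 and -1.42. Cd44 RNA differed by 0.55 and 0.41 and the CD44 tag (4 libraries) by 1.76 and -0.25. Pre-HE sums are small, so RNA ratios of genes near 0 there rest on the 0.5 CPM added.

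Cell by cell, tags were set against the 99th percentile of aEC of the same library. Above it lay 87.5% ± 9.38 of EHT cells for CD43, 70.2% ± 19.9 for CD41, 65.3% ± 15.8 for CD117, 16.2% ± 14.6 for CD27 and 5.78% ± 6.04 for CD45.2 (n = 7), and 94.4% ± 6.77 for CD44 (n = 4). The same shares in pre-HE were 9.64%, 1.72%, 0% (0 of 161 cells, which allows up to 1.86%), 0.87%, 0.37% and 51.6%, and in EMP 98.0%, 82.1%, 33.5%, 4.6%, 27.4% and 89.7%. By library the share above the line ran from 74.5% to 100% for CD43, 42.4% to 95.6% for CD41, 39.4% to 84.4% for CD117 and 0 to 16.1% for CD45.2, so CD43 alone of these 4 was above it in most EHT cells of all 7 libraries.

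EHT cells below that line for CD117, CD41, CD43 and CD45.2 together numbered 4 of 64, 0 of 45, 0 of 31 and 13 of 118 in WT 1, 2, 3 and 5, and 11 of 71, 4 of 51 and 2 of 40 in Meis1-flox/VE-Cre 1 to 3. The count of 0 allows a share of up to 6.67% in WT 2 and 9.68% in WT 3. Their median endothelial share was 63.6% to 86.6% in the 5 libraries that have any, where the remaining EHT cells had medians of 30.4% to 41.4%.

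Proteins followed the RNA order within EHT for CD43 and CD27. Cells above the median endothelial share of their library had less CD43 than the others, with a log2 ratio of -0.96 ± 0.42, and less CD27, with one of -0.55 ± 0.40 (each 7 of 7 libraries, exact permutation adjusted p = 0.0469 over 6 tags). For CD117 (-0.20), CD41 (-0.47), CD44 (-0.36, n = 4) and CD45.2 (0.22) the exact permutation adjusted p were 0.0938, 0.169, 0.169 and 0.344. Per 10000 RNA UMIs the differences were -0.75 for CD43 and -0.30 for CD27, and neither passed.

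The share of EHT cells among all cells was compared between genotypes, since loss of Meis1 in endothelium is the perturbation of the study. EHT cells made up 4.16%, 2.95%, 4.76%, 2.62% and 5.58% of WT 1 to 5 and 3.18%, 2.08% and 1.94% of Meis1-flox/VE-Cre 1 to 3. The groups overlapped. The means were 4.02% ± 1.24 and 2.40% ± 0.68, a difference of -1.62 percentage points (exact permutation p = 0.107, adjusted p = 0.214), where 5 libraries against 3 allow a smallest p of 0.0179. Within the sum of aEC, pre-HE and EHT cells, EHT cells were 25.5% ± 8.3 and 19.7% ± 7.0 (exact permutation p = 0.321).

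The place of EHT cells between endothelium and blood did not pass the test either. The median endothelial share was 33.3%, 33.3%, 33.3%, 50% and 34.5% in WT 1 to 5 and 44.0%, 41.4% and 42.3% in Meis1-flox/VE-Cre 1 to 3. All 3 Meis1-flox/VE-Cre values lay above 4 WT libraries and below WT 4. The difference of means was 5.65 percentage points (exact permutation adjusted p = 0.482), and without WT 4 it was 8.93 points and passed (exact permutation adjusted p = 0.0429). Median blood UMIs were 11.4 ± 0.89 and 11.3 ± 1.53 (exact permutation p = 1.0).

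**Figure D5:**
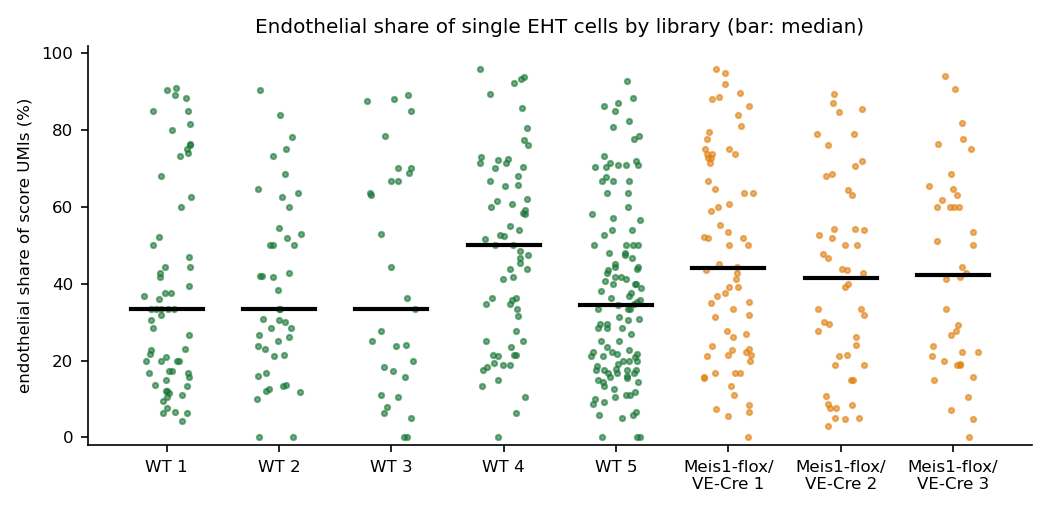
Endothelial share of each EHT cell, as a percentage of its endothelial and blood UMIs together, by library, with WT in green and Meis1-flox/VE-Cre in orange and a bar at the median (points are spread sideways for view). Cells cover most of the range in all 8 libraries, and the bars of the Meis1-flox/VE-Cre libraries, at 41.4% to 44.0%, lie between those of WT 4 and of the other WT libraries.

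Within EHT cells, 11 of 8670 genes (0.127%) were called between genotypes by edgeR's quasi-likelihood test at an adjusted p under 0.1. Of these, 5 were higher (0.0577%) and 6 lower (0.0692%) in Meis1-flox/VE-Cre. An unadjusted p under 0.05 was reached by 823 genes, and in 615 (7.09%) every library of one genotype lay beyond those of the other. Depth moved with genotype (WT 1 to 4 deep, the others shallow), so genotype and depth cannot be told apart. With the log2 median UMIs as a covariate 2 genes were called, Cpa3 and Gsn. Most Cpa3 UMIs of Meis1-flox/VE-Cre 1 and 3 came from single cells, and Gsn was not called after thinning to 5000 UMIs (edgeR adjusted p = 0.190). The size of the Gsn change did not shrink there, at -1.66 on the log2 scale beside -1.24 in the main fit. With WT 5 as the only WT library it was -1.62. The count of genes called also hung on single libraries: it was 261 without WT 5, 19 without WT 4, 1 without Meis1-flox/VE-Cre 1 or 2 and 0 without Meis1-flox/VE-Cre 3. The replicate block over libraries 1 to 3 called 450 genes, and the same libraries 278 without it.

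Dlk1 was the called gene that is also among those highest in EHT cells. Its level in WT 1 to 5 was 89.7, 50.1, 41.0, 66.5 and 58.6 CPM, and its level in Meis1-flox/VE-Cre 1 to 3 was 17.4, 14.6 and 18.0. The groups did not overlap, and the log2 change was -1.83 (SE 0.28, edgeR adjusted p = 0.0197). With depth as a covariate the change was -1.96 (edgeR adjusted p = 0.168). With WT 5, the shallow WT library, as the only WT library it was -1.80.

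Lmo2 was at 369, 329, 376, 294 and 283 CPM in WT and at 173, 223 and 196 CPM in Meis1-flox/VE-Cre, a log2 change of -0.71 (SE 0.13, edgeR adjusted p = 0.0550). Every Meis1-flox/VE-Cre library lay below every WT library. Egr1, an immediate early gene, fell by 3.05 on the log2 scale and Gsn, which encodes the actin-severing protein gelsolin, by 1.24 (edgeR adjusted p = 0.0550 each). Basp1, a membrane protein gene, fell by 0.73 and AI662270 by 3.11 (edgeR adjusted p = 0.0550 each). Cpa3 did not pass the filter on low counts once called doublets were left out, so it was not tested there. Without called doublets, Egr1, Gsn, Lmo2 and Cd53 were no longer called (edgeR adjusted p = 0.121, 0.108, 0.121 and 0.108). Such cells carried 11 of 28 Egr1 UMIs in WT 3 and 13 of 37 in WT 4.

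Ctla2a, which encodes a cysteine protease inhibitor and is listed among the hemogenic genes, was at 178, 153, 155, 185 and 160 CPM in WT and at 251, 277 and 262 CPM in Meis1-flox/VE-Cre. These ranges lay apart by more than the spread within either, with a log2 change of 0.69 (SE 0.11, edgeR adjusted p = 0.0197). Slc6a13, a transporter gene, rose by 1.53 (SE 0.26, edgeR adjusted p = 0.0414) and Cd53, a tetraspanin of leukocytes, by 2.56 (SE 0.50, edgeR adjusted p = 0.0742). Cd53 rested on 16, 9 and 9 UMIs in 8, 6 and 4 cells of Meis1-flox/VE-Cre 1 to 3.

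The largest rise was that of Cpa3, a protease gene of mast cells, by 5.94 on the log2 scale (SE 0.82, edgeR adjusted p = 0.0157). It was carried by single cells. In Meis1-flox/VE-Cre 3, 153 of its 169 UMIs came from 1 cell, and in Meis1-flox/VE-Cre 1, 27 of 32 UMIs came from 1 cell. The list of 9 mast cell markers summed to 50.3, 8.34 and 248 CPM in the Meis1-flox/VE-Cre libraries and to 0.626 to 4.34 CPM in WT, beside 92 to 277 CPM in WT EMP. The part of such cells in this call was not tested.

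Most EHT markers were not called. Runx1 changed by 0.11 (SE 0.12), Spi1 by 0.08 (SE 0.12), Gfi1 by -0.32 (SE 0.25), Ptprc by 0.54 (SE 0.22) and Meis1 by -0.34 (SE 0.14) on the log2 scale, with edgeR adjusted p of 0.807, 0.883, 0.737, 0.449 and 0.460. The 15 genes highest in EHT cells were chosen for high WT levels, which by itself makes values below 0 more likely, so their direction is given as a description. Of them, 0 were called higher and 1 lower, and the median was -0.17, beside 0.00 for all genes tested. In 4 of the 15 the libraries did not overlap, beside 7.09% of all genes, and the same choice makes this more likely too. Those were Dlk1, Hlf (101 ± 20.6 against 57.0 ± 6.84 CPM, edgeR adjusted p = 0.142), Serpina3g (36.2 ± 10.8 against 12 ± 6.36, adjusted p = 0.176) and Ift57 (55.6 ± 9.44 against 29.2 ± 3.58, adjusted p = 0.135). The median was -0.16 over 24 genes of hemogenic endothelium and stem cell precursors, with 1 called each way. It was 0.14 over 21 endothelial genes, with 0 called and 15 above 0, beside 4350 of all 8670 genes above 0. Of 24 pan-hematopoietic genes, 15 were above 0 too (median 0.10), so this direction was not particular to endothelial genes.

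On the surface, tags of EHT over aEC were compared between 4 WT and 3 Meis1-flox/VE-Cre libraries. CD45.2 was at 0.62 ± 0.23 in WT and -0.03 ± 0.28 in Meis1-flox/VE-Cre on the log2 scale. The libraries did not overlap, and the difference of -0.65 gave the smallest p that 4 against 3 allow (exact permutation p = 0.0286, adjusted p = 0.143 over 5 tags). CD117 differed by 0.36, CD43 by 0.57, CD27 by -0.37 and CD41 by -0.06 (exact permutation adjusted p = 0.464, 0.429, 0.214 and 0.943).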

How the data were processed

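Single-cell RNA and antibody tags of 8 libraries were analysed. The authors deposited raw UMI counts for 28014 genes and transgene features and 6 tags, with no normalization, and a table that names the library and cluster of each cell. Reads had been counted with Cell Ranger 3.0.2 on mm10 per the submitters' processing notes, from 10x 3′ libraries. In the study's methods, cells with more than 2000 genes and under 10% mitochondrial counts were kept, and clusters were drawn from integrated RNA and named by hand. The fewest genes in a cell was 2001.

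Counts were summed per library and cluster (sums of at least 10 cells) and scaled to CPM, and ratios between clusters were taken within a library as log2 of CPM with 0.5 added. Genotypes were tested within EHT cells with edgeR 4.0.16 (TMM, filterByExpr, quasi-likelihood F test, two-sided, Benjamini-Hochberg) in R 4.3.3 with limma 3.58.1, and shares, cell medians and tags by exact permutation of libraries with a threshold of 0.05. DESeq2 1.42.0 was an alternative. Doublets were called with Scrublet (scanpy 1.11.5, 30 components) and kept, and left out in an alternative. Other calculations used scipy 1.17.1, pandas 2.3.3 and numpy 2.4.6 in Python 3.11.15, with plots by matplotlib 3.10.9. The edgeR test was checked on simulated counts, and the permutation tests were not.

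The members, the gene lists and the alternatives were chosen with earlier results of these data known. Named genes were Runx1, Gfi1, Spi1, Meis1, Ptprc and the tagged genes, the genes highest in EHT cells, up to 4 high and 2 low members of each list, and the genes called between genotypes. Genes named along the tertiles were chosen after their values were seen. Results of 2 genes are not reported here. Intervals (exact Clopper-Pearson, 95%) and the limits of a count of 0 (3 counts) cover counting error only. Numbered replicates did not pair: deviations of same-numbered libraries correlated by -0.025 to 0.090.

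Alternatives changed normalization, the filter on low counts, the tool, the threshold, thinning, depth as a covariate, the WT libraries used, doublets, the replicate block and the measure of tags, and left out each library in turn. A fit of libraries 1 to 3 with no block was added after the data had been seen.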

Additional observations from a re-analysis of the deposited data

Results flagged for a closer look

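In 58 groups of 4 or 5 libraries, the highest or lowest value was compared with its gap to the nearest other library, and 5 passed Dixon's 95% critical value (0.829 for 4 libraries and 0.710 for 5). Chance gives about 1 in 20. WT 4 stood apart in 3 of them. Its EHT cells had a median endothelial share of 50%, where the other WT libraries had 33.33% to 34.5%, and a median of 10.0 endothelial UMIs, where the others had 5 to 6. Its Meis1 level in EHT cells was 68.03 CPM, where the others had 80.91 to 85.81 CPM. WT 4 was also the library with the most cells and with no tag counts.

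The CD27 tag of EHT over aEC was lower in WT 2, at 1.112 on the log2 scale, than in the other WT libraries, at 1.382 to 1.386. The CD43 tag of EHT against pre-HE was higher in WT 5, at 4.263, than in the others, at 3.238 to 3.302. WT 5 is the shallow WT library.

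The CreERT2 feature, which enters no comparison, was counted 12 times in Meis1-flox/VE-Cre 1, 3 times in Meis1-flox/VE-Cre 2 and 19 times in Meis1-flox/VE-Cre 3, and 0 times in WT. EHT cells held 1, 0 and 1 of these counts.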

How the results depend on the processing

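Of 164 alternative values outside the leave-one-out ones, 107 kept their direction and their side of the threshold. The cause of a change was not tested unless given.

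The 15 genes highest in EHT cells became 25 with a minimum of 10 CPM, 30 with a margin of 0.58 and 9 in the Meis1-flox/VE-Cre libraries, and 14 to 17 when 1 WT library was left out. The 11 genes called between genotypes became 43 with DESeq2, 237 with no filter on low counts, 5 at an adjusted p under 0.05, 3 with Bonferroni adjustment, 1 after thinning to 5000 UMIs, 2 with depth as a covariate, 6 with WT 5 as the only WT library and 6 without doublets, and 0 to 261 when 1 library was left out (261 without WT 5, 19 without WT 4, 1 without Meis1-flox/VE-Cre 1 or 2, 0 without Meis1-flox/VE-Cre 3).

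With the replicate number as a block, libraries 1 to 3 gave 450 genes, and 278 with no block. The same libraries are the deep ones of WT, and not every library correlated best with its own number. Under the block the EHT share of all cells differed by -1.56 points, the median endothelial share by 9.22 points and the CD41 tag over aEC by 0.22, which reverses it. The block changed no other call.

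Tags of EHT against pre-HE and EMP were no longer past the threshold in WT libraries alone (in this order, CD117 2.80 and 0.66, CD41 3.57 and -0.31, CD43 3.52 and -0.21, CD45.2 0.78 and -0.84, CD27 1.27 and 0.84) or in Meis1-flox/VE-Cre alone (2.89 and 0.79, 3.47 and -1.09, 3.90 and -1.12, 0.62 and -2.18, 1.07 and 1.34), where the smallest p are 0.125 and 0.25. As a share of 5 tags, CD117 and CD41 over pre-HE (0.11 and 0.62) and CD41 over EMP (-0.24) no longer passed, and CD45.2 and CD27 over pre-HE reversed (-2.02 and -1.69). Per 10000 RNA UMIs, CD27 over pre-HE (0.026) and CD41, CD43 and CD45.2 over EMP (-0.083, -0.22 and -1.01) no longer passed, and CD45.2 over pre-HE (-0.43) and CD44 over EMP (0.30) reversed. CD41 over EMP did not pass with medians (-0.52), nor CD43 over EMP without doublets (-0.59) or with 1 library left out (-0.72 to -0.45), WT 3 excepted.

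By endothelial share, CD43 (-0.75) and CD27 (-0.30) no longer passed and CD117 reversed (0.050) per 10000 RNA UMIs, and CD45.2 reversed at 3000 UMIs (-0.079). With 1 library left out, CD43 (-1.04 to -0.87) and CD27 (-0.61 to -0.42) did not pass, as fewer libraries raise the smallest p. Differences near 0 between genotypes changed sign: CD41 over aEC (0.18 per 10000 RNA UMIs, 0.018 with vEC as the base, 0.023 without doublets, -0.23 to 0.22 with 1 library left out) and median blood UMIs (0.64 without thinning, 0.33 at 3000 UMIs, 0.23 as a mean, -0.90 to 0.60 with 1 library left out). With 1 library left out, the median endothelial share differed by 4.76 to 8.93 points and endothelial UMIs by 0.83 to 2.08, both passing without WT 4.

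Depth limits the genotype comparison, since 4 of 5 WT libraries are deep and all Meis1-flox/VE-Cre libraries are shallow. The rarest sums, of 31 and 40 EHT cells, rest on few cells.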
